A study of Drosophila melanogaster with 2 samples.

Results

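Of the 3260 peaks on the 6 main chromosome arms in the list that rests on agreement between both replicates, 611 (18.7%, 95% Wilson interval 17.4 to 20.1) had their summit just upstream of the start of a lone protein-coding gene. A peak was a member when its summit, the position of highest enrichment that the file records, lay 1 to 500 bp upstream of its nearest annotated transcription start site (TSS). That TSS had to belong to a protein-coding gene, and no gene on the opposite strand could have a TSS for which the same summit also lay 1 to 500 bp upstream. The members lay upstream of 592 distinct starts of 563 genes. The study used chromatin immunoprecipitation and sequencing (ChIP-seq) to map sites in prepupae of Drosophila melanogaster, aged 1 day and taken whole. The antibody was anti-GFP, and the animals were of the CG11294-GFP strain, which carries a transgene for CG11294 fused to eGFP. There were 2 biological replicates of this 1 group. The antibody label names CG11294 where the description names anti-GFP, sex was not collected, and all cell types of the animal were pooled. No control immunoprecipitation was analysed here, so DNA recovered without the tagged protein cannot be told apart from its sites.

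CG11294 is annotated as a homeodomain protein of the paired-like kind. Homeodomains bind short A/T-rich words built on TAAT, and paired-like proteins can bind as dimers to a palindrome of such words. A fly promoter that faces no other gene drives transcription in 1 direction, while genes of a divergent pair share the DNA between them. In flies, promoters of broadly used genes often hold elements such as the DNA replication-related element (DRE) or Motif 7, and promoters of regulated genes more often hold a TATA box or repeats bound by GAGA factor.

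The windows below are the 200 bp around the summit, read on the strand of the gene from the dm6 sequence, 5′ to 3′, so that the gene lies to the right. Each shows where a word that the results turn on stands in a member. They were chosen, outside 1 arm left out of the choice, as the members of highest signal that overlapped a thresholded peak in both replicates and held the word in capitals, passing over members already shown, except that ph-p is the second strongest with its word. In the first pair the capitals mark the octamer GGGCGTAG, which was noticed after the members were seen and stood in both of the strongest members. The window of CG14100 is chr3L:19590514-19590713 (minus strand), 90 bp upstream of the start, and that of Ugalt is chrX:2703781-2703980 (minus strand), 29 bp upstream.
CG14100: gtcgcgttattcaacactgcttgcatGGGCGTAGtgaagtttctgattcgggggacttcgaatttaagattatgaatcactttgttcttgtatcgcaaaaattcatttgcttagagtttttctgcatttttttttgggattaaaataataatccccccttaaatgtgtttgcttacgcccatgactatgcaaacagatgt
Ugalt: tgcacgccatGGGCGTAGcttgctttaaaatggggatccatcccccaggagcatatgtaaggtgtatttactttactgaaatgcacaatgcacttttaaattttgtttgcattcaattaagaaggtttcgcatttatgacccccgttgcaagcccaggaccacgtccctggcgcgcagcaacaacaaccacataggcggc
In the next windows the capitals mark CACTG or its complement CAGTG. They are chr3R:31588432-31588631 (plus strand) at CG1635, chrX:13131259-13131458 (plus strand) at MFS10 and chr3L:1746673-1746872 (plus strand) at CG13921, which holds the word at 3 places.
CG1635: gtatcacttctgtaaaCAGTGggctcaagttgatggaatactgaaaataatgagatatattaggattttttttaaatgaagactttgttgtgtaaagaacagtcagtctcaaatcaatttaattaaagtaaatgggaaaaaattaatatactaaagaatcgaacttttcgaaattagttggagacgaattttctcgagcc
MFS10: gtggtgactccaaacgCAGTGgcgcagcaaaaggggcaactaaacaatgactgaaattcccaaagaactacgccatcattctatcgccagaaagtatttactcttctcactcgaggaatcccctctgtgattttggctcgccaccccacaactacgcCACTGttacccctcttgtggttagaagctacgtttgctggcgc
CG13921: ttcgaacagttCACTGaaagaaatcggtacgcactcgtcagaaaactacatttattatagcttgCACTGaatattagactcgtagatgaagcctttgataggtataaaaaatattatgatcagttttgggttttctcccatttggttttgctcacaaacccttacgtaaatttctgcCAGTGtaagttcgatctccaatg
In the window of ph-p, chrX:2137250-2137449 (minus strand), the capitals mark GGTATA at 2 places. In that of Btk, chr2L:8277756-8277955 (minus strand), they mark the GAGA repeat, GAGAGAG or its complement.
ph-p: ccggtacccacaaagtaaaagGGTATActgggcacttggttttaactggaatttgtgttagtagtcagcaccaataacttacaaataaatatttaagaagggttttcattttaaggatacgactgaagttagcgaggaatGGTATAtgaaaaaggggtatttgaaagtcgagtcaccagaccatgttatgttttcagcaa
Btk: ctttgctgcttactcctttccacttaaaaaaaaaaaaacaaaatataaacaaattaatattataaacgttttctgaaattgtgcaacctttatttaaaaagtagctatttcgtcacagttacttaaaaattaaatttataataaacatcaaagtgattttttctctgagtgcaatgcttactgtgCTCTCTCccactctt
The last windows show elements that were rare among members. Capitals mark the DRE, TATCGATA, in the window of l(3)psg2 (chr3L:5583423-5583622, plus strand) and the Motif 7 core, CATCNCTA or its complement, in that of tst (chr3R:23772871-23773070, minus strand).
l(3)psg2: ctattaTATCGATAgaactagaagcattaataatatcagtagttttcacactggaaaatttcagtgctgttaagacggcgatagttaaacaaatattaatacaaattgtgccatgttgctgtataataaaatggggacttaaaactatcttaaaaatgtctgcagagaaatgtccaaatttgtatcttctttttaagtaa
tst: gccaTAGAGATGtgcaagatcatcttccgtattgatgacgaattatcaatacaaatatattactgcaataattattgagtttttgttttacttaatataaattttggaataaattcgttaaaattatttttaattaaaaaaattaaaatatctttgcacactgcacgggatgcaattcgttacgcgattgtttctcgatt

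Member summits were most frequent between 200 and 151 bp upstream of the start. The median position was -192 bp, with quartiles at -298 and -126 bp. The fullest 50 bp bin ran from -200 to -151 bp and held 122 members (95% interval 17.0 to 23.3% of them). The bin next to the start held 40 (6.55%) and the farthest bin 18 (2.95%). Ranked peaks of the same kind of list that reached neither of the thresholded series lists had a similar centre and a wider spread: 4021 of 92304 (4.36%) met the same position rule, and 14.3% of those lay in the bin next to the start. Their median of -195 bp was close to that of the members, with wider quartiles of -336 and -90.0 bp, and 26.4% of them against 26.2% of members lay 50 to 150 bp upstream. The rule itself uses position, so no test was made. Signal, the authors' enrichment value, followed position too. Its median was 165 in the bin from -250 to -201 bp, 81.9 next to the start and 88.5 in the farthest bin. At the far edge of the rule, the members of by (-500 bp, signal 52.6) and CG3630 (-497 bp, signal 116) were just inside, and peaks at Mob2 and CG6225, both at -503 bp with signals 105 and 160, were just outside. At the near edge, CG32772 (-1 bp, signal 186) and CG18278 (-4 bp, signal 64.1) were inside, while Cbp20 at 1 bp (signal 96.0) and Rnmt at 2 bp (signal 106) were outside.

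**Figure D1:**
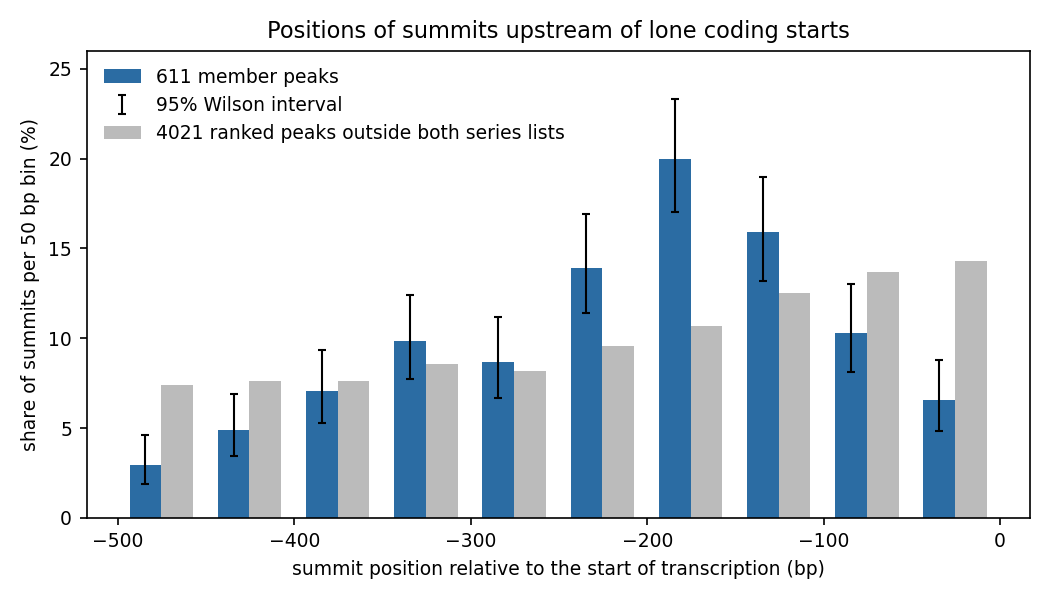
Share of summits in each 50 bp bin upstream of the start, for the 611 members (blue, bars are 95% Wilson intervals) and for the 4021 ranked peaks outside both series lists that meet the same rule (grey). Members are most frequent from -200 to -151 bp (122 peaks) and the grey peaks next to the start (14.3%).

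Summits between genes and summits inside annotated genes were about equally common. Of the 611 summits, 307 (50.2%, 46.3 to 54.2) lay between genes, 217 (35.5%) lay inside the same gene, upstream of one of its internal starts, and 58 (9.49%) lay in an intron of another gene. A noncoding exon of another gene held 28 and a coding exon 1. The start was the first annotated start of its gene for 376 members (61.5%, 57.6 to 65.3). Among the 307 intergenic summits, the neighbour on the far side was on the same strand in 198 (64.5%), at a median distance of 704 bp. It was on the opposite strand in 109, at a median of 1485 bp. The X held 125 members (20.5%, against 19.6% of the whole list), and 108 of 1521 genes with a lone start on the X had a member (5.92 to 8.50%), against 5.02% to 5.91% on the other large arms. On chromosome 4, 0 of 61 such genes had one.

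With the main settings, members were recovered more often in both replicates than most other peaks, a call that several alternatives given at the end lost. Replicate 1's own thresholded list held a peak that overlapped 509 members (83.3%), replicate 2's held 431 (70.5%), and both held 381 (62.4%, 58.4 to 66.1), where the share over the whole list was 54.8%. A further 128 were in replicate 1 alone, 50 in replicate 2 alone and 52 in neither. The share in both was 53.1% over all other peaks (two-sided Fisher's exact test over peaks, adjusted p = 9.93e-05) and 53.3% over peaks just downstream of a start (adjusted p = 0.0346). It was 55.4% over peaks upstream of divergent pairs, a difference that did not pass the same exact test (adjusted p = 0.0547). The 2 replicates did not rank these classes alike: divergent-pair peaks were in replicate 1 more often than members (88.1% against 83.3%) and in replicate 2 less often (61.5% against 70.5%). When the members were drawn from replicate 2's list alone, 67.5% were found in the other replicate against 80.4% of divergent-pair peaks, a difference of -12.9 percentage points (exact Fisher test, adjusted p = 9.28e-04). From replicate 1's list it was 60.9%, which was 21.0 points above that of divergent-pair peaks (exact test, adjusted p = 1.61e-10). The order of members and divergent-pair peaks therefore turned with the replicate used.

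In level, members stood above the bulk of the list. Their signal ran from 2.02 to 1649 with a median of 129, against 143 for divergent-pair peaks, 111 for peaks just downstream of a start and 105 for peaks more than 500 bp from a start. A signal above the list median was seen in 58.3% of members (54.3 to 62.1) and 48.1% of all other peaks, where by construction 1630 of the 3260 lie above it (exact Fisher test, adjusted p = 2.08e-05). Neither the 61.9% of divergent-pair peaks (adjusted p = 0.338) nor the 50.5% of downstream peaks (adjusted p = 0.0819) passed the same exact test against members. Within members the replicates' signals were ranked alike to a degree: over the 599 members with a ranked peak in both, Spearman's rho was 0.697, a description over peaks that share 2 libraries. The median signal was 75.4 in replicate 1 and 59.0 in replicate 2. Presence in both lists rose with signal, from 12.4% in the weakest of 4 equal parts to 49.7%, 90.2% and 97.4% in the next ones. In the weakest of these parts, 152 of 153 peaks were exactly 340 bp wide with the summit at the midpoint, and 0 of 152 in the strongest, so summit positions of weak members are those of a fixed-width window.

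**Figure D2:**
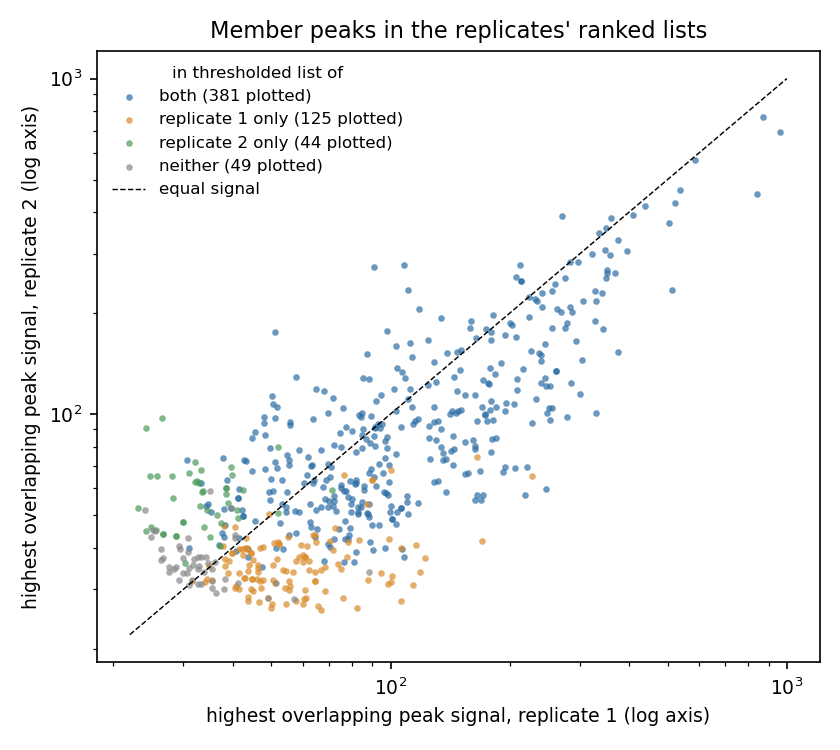
Signal of the strongest overlapping ranked peak in replicate 1 (x, log axis) and replicate 2 (y, log axis) for the 599 members with a ranked peak in both, coloured by which replicate's thresholded list held them. The 381 members in both lists reach 958 in replicate 1 and 770 in replicate 2, and the members in neither list sit at the lower left.

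The strongest members lay upstream of genes with varied roles. At CG14100 the list signal was 1649, with 958 in replicate 1 and 694 in replicate 2. At Ugalt, which codes for the transporter of UDP-galactose into the Golgi, it was 1634, with 870 and 770. These lay first and second in both replicates, in opposite order. The peak 126 bp upstream of mRpL41, a subunit of the mitochondrial ribosome, had a signal of 1292 with 841 in replicate 1 and 452 in replicate 2. That of PNPase, a mitochondrial RNA-degrading enzyme, had 1158 with 586 and 573. CG18549 (538 and 465) and ph-p (522 and 425), the latter a Polycomb group gene, followed by list signal. Hsp27, a small heat shock protein gene that ecdysone also induces, had a summit 161 bp upstream with a signal of 882, and 505 and 370 in the replicates. Fkbp14, an isomerase of the endoplasmic reticulum, had 846 with 438 and 416. Sesn, a sestrin that restrains TOR complex 1, had 771 with 409 and 391, and Lpin, the phosphatidate phosphatase lipin, had 707 with 395 and 307. At CG31145 replicate 1 gave 512 and replicate 2 gave 234, and at Gapdh2 the order was the other way, with 270 and 389. The others of the 20 strongest were CG1635, MFS10, CG13921, CG1888, gish (a casein kinase 1), Trp1 (a subunit of the protein translocation machinery), CG10165 and papi (a partner of Piwi proteins), with signals from 632 to 733.

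A member peak was present upstream of 525 of the 9307 genes with a lone start (5.64%), which is the background for the gene lists. A lone start here is a coding TSS with no opposite-strand TSS within 1000 bp upstream. Among genes of the ecdysone response, which drives metamorphosis, 4 of 23 had a member (17.4%, 6.98 to 37.1). The pro-apoptotic gene hid had a signal of 368 (256 in replicate 1, 104 in replicate 2), 305 bp upstream. E23, an ABC transporter, had 363 (216 and 136), Ldh, lactate dehydrogenase, had 137 (81.3 and 62.0), and EcR, the ecdysone receptor, had 91.8 (60.9 and 37.6). All of these were in replicate 1's thresholded list and EcR was the exception in replicate 2's. Of patterning signal genes 4 of 31 had one (12.9%, 5.13 to 28.9). They were spi, the EGF-like ligand Spitz (268), its antagonist aos, Argos (147), the Wingless antagonist nkd (133) and the BMP effector Mad (101). Intervals this wide take in or come near the background, and no set test was made.

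Heat shock and chaperone genes gave 2 of 19 (10.5%), and ribosomal protein genes 3 of 40 (7.50%), both with intervals that include the background. The heat shock and chaperone genes with a lone start were Hsp27 and stv, which codes for the chaperone partner Starvin and had a list signal of 16.8, with stronger overlapping peaks of 154 in replicate 1 and 82.7 in replicate 2. Among those without one, Hsp26 had a signal of 223 (113 in replicate 1, 105 in replicate 2), and Hsp83 97.1 (32.2 and 72.0). The ribosomal protein genes with a member, counting those without a lone start, were RpS28b (108), RpL30 (103), RpS5a (91.5), RpL8 (76.5) and RpL27A (53.1), all within 60 bp of the start. Translation factors gave 2 of 33 (eIF5B 126, eEF1gamma 99.3 and eEF1alpha1 77.5 with eIF5B, which lacks a lone start, counted), vesicle transport 2 of 42 (Rab5 277, deltaCOP 141), homeobox genes 2 of 77 (NK7.1 259, tin 220), RNA polymerase and Mediator genes 1 of 18 (Polr2F 85.5), and chemosensory genes 1 of 190 (Obp83cd 67.0, in neither replicate's thresholded list). No member lay upstream of a lone-start gene of the respiratory chain and ATP synthase (0 of 44, interval up to 8.03%), of the proteasome (0 of 26, up to 12.9%), of cuticle proteins (0 of 106, up to 3.50%) or of mitochondrial ribosomal proteins (0 of 15, up to 20.4%); mRpL41 has no lone start by this definition. The lists of mitochondrial import (12 lone-start genes), tRNA synthetases (11), TFIID (11), replication (11), nuclear pore (5), insulator proteins (5) and splicing (3) also gave 0. At CG11294 itself no summit of the list lay within 2000 bp, and the nearest was 10438 bp away.

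Genes of sugar breakdown and storage were noticed among the members, so the lists that follow were chosen after the members were seen and carry no test. Of 15 glycolytic enzyme genes, from hexokinase to lactate dehydrogenase, 6 had a member, all of them among the 11 with a lone start (54.5%, 28.0 to 78.7). At Gapdh2, glyceraldehyde-3-phosphate dehydrogenase, the signal was 664 (270 in replicate 1, 389 in replicate 2). At Eno, enolase, it was 380 (246 and 128), and at PyK, pyruvate kinase, 165 (84.6 and 79.2). Hex-A, a hexokinase, had 159 (99.2 and 70.4), Ldh had 137 and Pgk, phosphoglycerate kinase, had 135 (104 and 51.0). All 6 overlapped a thresholded peak in both replicates and lay from -275 to -157 bp. The other 9 genes of the list had no list summit within 500 bp of any of their starts. Of 7 genes of glycogen and trehalose metabolism 4 had a member, all of them among the 5 with a lone start (80.0%, 37.6 to 96.4). They were Glyp, glycogen phosphorylase (304), Glys, glycogen synthase (157), Pgm1, phosphoglucomutase (124), and Treh, trehalase (63.1). Treh was missing from replicate 2's thresholded list and Pgm1 from replicate 1's. Sarcomere genes gave 4 of 29, all of them among the 27 with a lone start (14.8%, 5.92 to 32.5). The lower end of that interval comes near the 5.64% over all lone-start genes. Those with a member were Msp300 (251), sls, the titin-like Sallimus (217), tmod, tropomodulin (174), and zormin (74.7), each with its summit more than 300 bp upstream of the start.

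**Figure D3:**
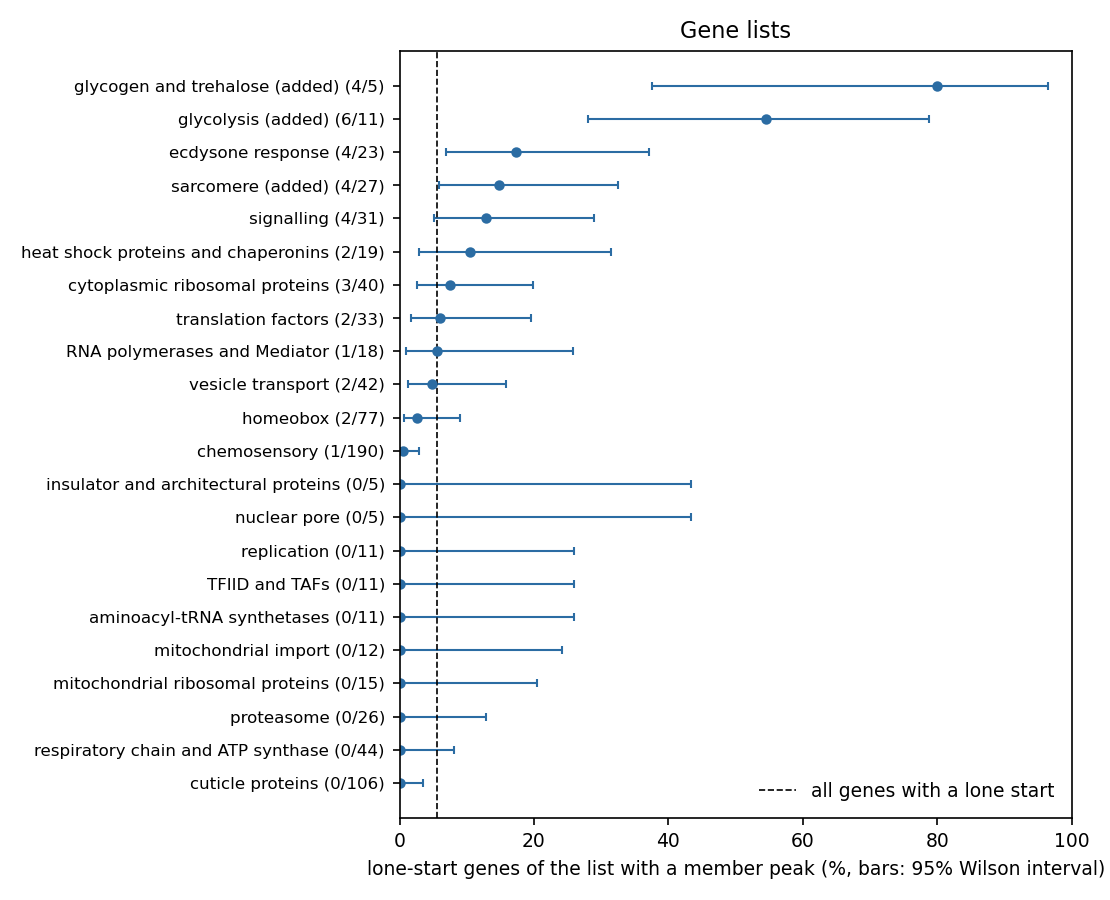
Share of lone-start genes with a member peak in each gene list of at least 5 such genes (points, 95% Wilson intervals), with the count in brackets and the share over all 9307 lone-start genes (5.64%) as a dashed line. The lists marked as added, chosen after the members were seen, reach 80.0% (glycogen and trehalose) and 54.5% (glycolysis), and the cuticle list is at 0.

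Starts with more than 1 member summit were few: 19 starts had 2. The strongest by summed signal were Tina-1 (466 and 13.6), scb, an integrin alpha chain (393 and 71.4), by, the tensin blistery (233 and 52.6), l(1)G0320 (157 and 19.0) and CG10365 (156 and 13.6). At each of these the second summit was the weaker by far, and over all members 10 of the 11 with a signal under 10 had another list summit within 400 bp.

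At the sequence level, words around CACTG were more frequent at member summits than in the upstream flank. A total of 22 motifs was searched on both strands in the 200 bp window at each summit and in an equal one 500 bp farther from the gene. The words were the homeodomain core TAATTA, the word TAAT itself, palindromic dimers of that word with a spacer of 2 or 3 bases, the TATA box as TATAAA, the DRE as TATCGATA, the core of Motif 1 as GGTCACACT, the core of Motif 6 as GTATNTTT, the core of Motif 7 as CATCNCTA, the E-box CAGCTG, the initiator word TCAGTT, the GAGA repeat as GAGAGAG, the Zelda site CAGGTAG, a tract of 8 A (AAAAAAAA) and the CA repeat as CACACACA. From an earlier scan of these data came CACTG, then ACAGTG and also ACACTG, further AGTGTA with GTGCAC, and lastly ACTGTA besides ATATTA. The core and the dimers hold TAAT, and ACACTG and ACAGTG hold CACTG or its complement. Of the 22, 10 (45.5%) were called more frequent at the summit, at an adjusted p under 0.05 in the two-sided exact McNemar test, and 0 (0%) less frequent. The 10 hold 6 of the 7 words from the earlier scan, which chose them on these same data, so their counts are given as a description with no p. Of the 15 others 4 were called. CACTG stood in 303 of 611 summit windows (49.6%) and 185 flanks (30.3%). ACAGTG stood in 20.9% against 9.66% and ACACTG in 110 windows against 52. The GAGA repeat was in 52 windows (8.51%) against 25 (4.09%; exact test, adjusted p = 0.00411) and the TATA box in 35.4% against 26.8% (adjusted p = 0.00596). From replicate 2's list alone the TATA box differed by 0 points, against 13.6 points from replicate 1's (exact test, adjusted p = 1.00 and 4.85e-06). The homeodomain core did not pass (15.5% against 13.4%, adjusted p = 0.532 in the exact test), and nor did the dimer with a 3-base spacer (2.45% against 2.13%). The dimer with a 2-base spacer did, from 13 windows against 2 (adjusted p = 0.0162 in the exact test). With 100 bp windows the excess of CACTG at the summit fell from 19.3 to 4.42 percentage points and that of ACAGTG from 11.3 to 2.13. Neither word was called at that width. The GAGA repeat's call against the flank was lost in 6 of 11 alternatives, from 0.972 points in replicate 1's list alone (exact test, adjusted p = 0.634) to 4.35 points in narrower peaks (adjusted p = 0.104), and with 100 bp windows it was 1.15 points. Mean GC content was 35.9% (SD 7.38, n = 611) at summits and 39.9% in the flanks.

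Over all 13945 protein-coding genes on these arms, CACTG stood in 30.3% of windows from 230 to 31 bp upstream of the first start. The corresponding shares were 8.83% for ACAGTG, 9.97% for ACACTG, 8.43% for AGTGTA, 3.59% for GTGCAC, 7.82% for ACTGTA and 27.6% for ATATTA. They were 4.90% for the GAGA repeat, 34.0% for the TATA box, 5.25% for the DRE, 2.71% for the Motif 7 core, 1.89% for the Motif 1 core, 10.8% for the Motif 6 core, 9.75% for the E-box and 13.0% for the initiator. For the homeodomain core the share was 17.2%, for TAAT 87.8%, for the dimers 2.60% (3-base spacer) and 2.43% (2-base spacer), for the Zelda site 1.23%, for the A tract 12.1% and for the CA repeat 2.66%. In the same window, 201 lone promoters with a member summit in it were compared with 7998 lone promoters with no thresholded series peak within 500 bp. At the same distance from the start, then, 9 motifs (40.9%) were called more frequent with a member and 0 (0%) less frequent. All 7 words from the earlier scan are among the 9 and are again given with no p, and of the 15 others 2 were called, TAAT (92.5% against 85.5%; exact test, adjusted p = 0.00964) and the GAGA repeat. CACTG stood in 49.3% (42.4 to 56.1) against 28.3%, and ACAGTG in 20.9% against 7.25%. The GAGA repeat was in 11.4% against 5.55% (two-sided Fisher's exact test, adjusted p = 0.00599). The homeodomain core was in 17.9% against 16.1% and the TATA box in 32.3% against 31.7%, neither called (adjusted p = 0.642 and 0.878 in the exact test). This window ends 31 bp upstream of the start, and both strands were searched. Its TATA box and initiator shares are therefore of those words anywhere in it. Elements nearer the start were not counted, so a difference in them could not be seen. Mean GC was 37.2% with a member and 38.8% without, and with windows of 30 to 40% GC 5 motifs were called.

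Against divergent-pair peaks, the class most like them, members held more GAGA repeats and fewer DRE and Motif 7 elements. Lone and divergent promoters without a peak differed in the same direction for these elements, as given below. Divergent-pair summits lay nearer the start, at a median of -112 bp against -192 bp for members. The summit windows of these classes thus cover unlike parts of the promoter, and the part of position in the motif differences was not tested. Of the 22 motifs, 3 (13.6%) were more frequent at the 611 members than at the 278 divergent-pair summits and 8 (36.4%) less frequent. The words from the earlier scan gave 1 of the 3 and 1 of the 8. The GAGA repeat was in 52 members (8.51%, 6.55 to 11.0) and 2 divergent-pair windows (0.719%; two-sided Fisher's exact test, adjusted p = 8.60e-06). It stayed called in each of the alternatives run, which are described after the report. The CA repeat, CACACACA, was in 3.93% against 0.719% (exact test, adjusted p = 0.0219). CACTG, a word from the earlier scan and so given with no p, was in 49.6% against 41.4%, a call that 6 of 11 alternatives lost. The DRE was in 12 members (1.96%) and 23 divergent-pair windows (8.27%; exact test, adjusted p = 1.56e-04), and the Motif 7 core in 18 (2.95%) and 25 (8.99%; adjusted p = 0.00150). With 100 bp windows the DRE differed by -0.293 points (exact test, adjusted p = 0.865) and the Motif 7 core by 0.230 points, and in narrower peaks the DRE's -3.46 points were not called (adjusted p = 0.198 in the exact test). The Motif 1 core (0.982% against 2.52%) and the Motif 6 core (55 of 611 against 34 of 278 windows) were not called (adjusted p = 0.186 and 0.204 in the exact test). Homeodomain words were also less frequent at members: the core was in 15.5% against 25.9% (exact test, adjusted p = 0.00178), TAAT in 91.7% against 99.3%, and the dimers in 2.45% against 7.55% (3-base spacer) and 2.13% against 5.40% (2-base spacer). The TATA box was in 35.4% against 46.8% and ATATTA in 34.9% against 44.2%. The homeodomain core's call was lost in 5 of 11 alternatives and that of the TATA box in 4 of 11. Base composition differed as well: GC was 35.9% at members and 32.6% (SD 5.99, n = 278) at divergent pairs. With windows of 30 to 40% GC the homeodomain core differed by -8.30 points (exact test, adjusted p = 0.117) and the TATA box by -3.63 points (adjusted p = 0.578), so neither was called, against -10.4 and -11.4 points over all windows. The part of base composition in these differences was not tested beyond that.

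Promoters without any series peak gave the following shares of the same elements. Over the 7998 lone promoters without a series peak the GAGA repeat was in 5.55%, the CA repeat in 3.26%, the DRE in 3.40% and the Motif 7 core in 1.66%. Over 4248 coding promoters with an opposite-strand TSS within 1000 bp and no series peak they were in 2.97%, 1.46%, 8.57% and 3.74%. For each of these elements the order was the same as between member and divergent-pair summits. The homeodomain core was in 16.1% and 18.5%, also in the order seen at the summits. CACTG was in 28.3% and 31.2%, an order opposite to that at the summits. This comparison was added after the summit result was seen and is given as a description. Against the 214 summits just downstream of a start, 0 motifs (0%) were called higher and 0 (0%) lower in the exact test. At an unadjusted p under 0.05 were TAAT (91.7% against 86.0%), the TATA box (35.4% against 27.6%) and the GAGA repeat (8.51% against 3.74%), with adjusted p from 0.248 to 0.316 in Fisher's exact test. CACTG was in 46.7% of those windows, within the interval of the members.

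**Figure D4:**
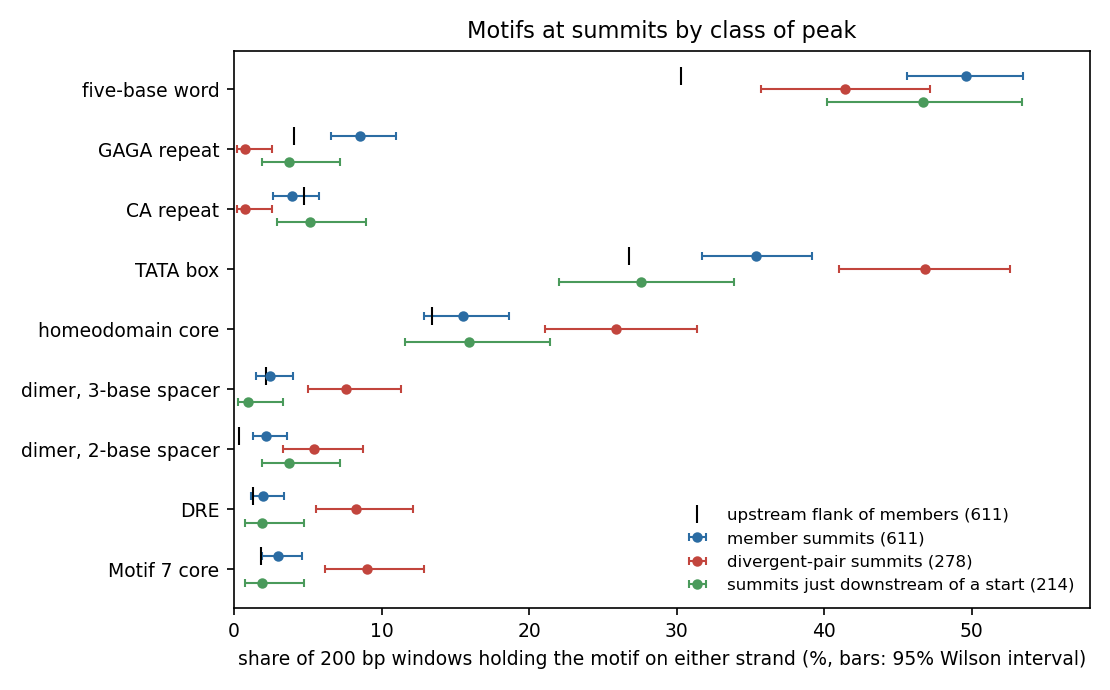
Share of 200 bp windows that hold each motif (x, %, bars are 95% Wilson intervals) at member summits (blue), divergent-pair summits (red) and summits just downstream of a start (green), with the members' upstream flank as a black tick. The first row is CACTG. The GAGA repeat is at 8.51% in members and 0.719% in divergent pairs, and the DRE at 1.96% and 8.27%.

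The words differed in where they stood relative to the summit. Occurrences, overlapping ones included, were counted per 25 bp and 100 peaks with the gene to the right. CACTG gave 6.42 within 50 bp of the summit, 8.67 at 50 to 150 bp on the far side, 10.8 at 50 to 150 bp on the gene side, and 5.84 beyond 250 bp. So its excess lay beside the summit rather than on it. In the 253 members narrower than 340 bp these values were 3.56, 11.0, 13.1 and 5.50, a trough with a shoulder on each side. In the 357 members of fixed width, whose summit is the midpoint, they were 8.47, 7.07, 9.03 and 6.09. The GAGA repeat also lay to the sides in the narrower peaks (0.198 within 50 bp, 3.46 on the far side, 5.53 on the gene side). The TATA box, counted as the word TATAAA on either strand, and the homeodomain core were instead highest within 50 bp there. Distances here are from the summit, whose median position was -192 bp from the start. A hit of TATAAA is thus the word at any distance from the start, and its use as a promoter element was not tested. The TATA box gave 9.68 within 50 bp, 5.43 on the far side and 1.98 on the gene side. The homeodomain core gave 3.16, 1.88 and 1.38, with 1.48 beyond 250 bp. In the members of fixed width both were highest on the far side. There the TATA box gave 6.23, 6.72 and 2.38, and the homeodomain core 2.10, 2.38 and 1.68. With respect to the gene, CACTG had no preferred strand. Among the 245 members with the word in 1 orientation, 125 had it on the strand of the gene and 120 on the other (51.0%; two-sided exact binomial test, p = 0.798). A further 58 held both.

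**Figure D5:**
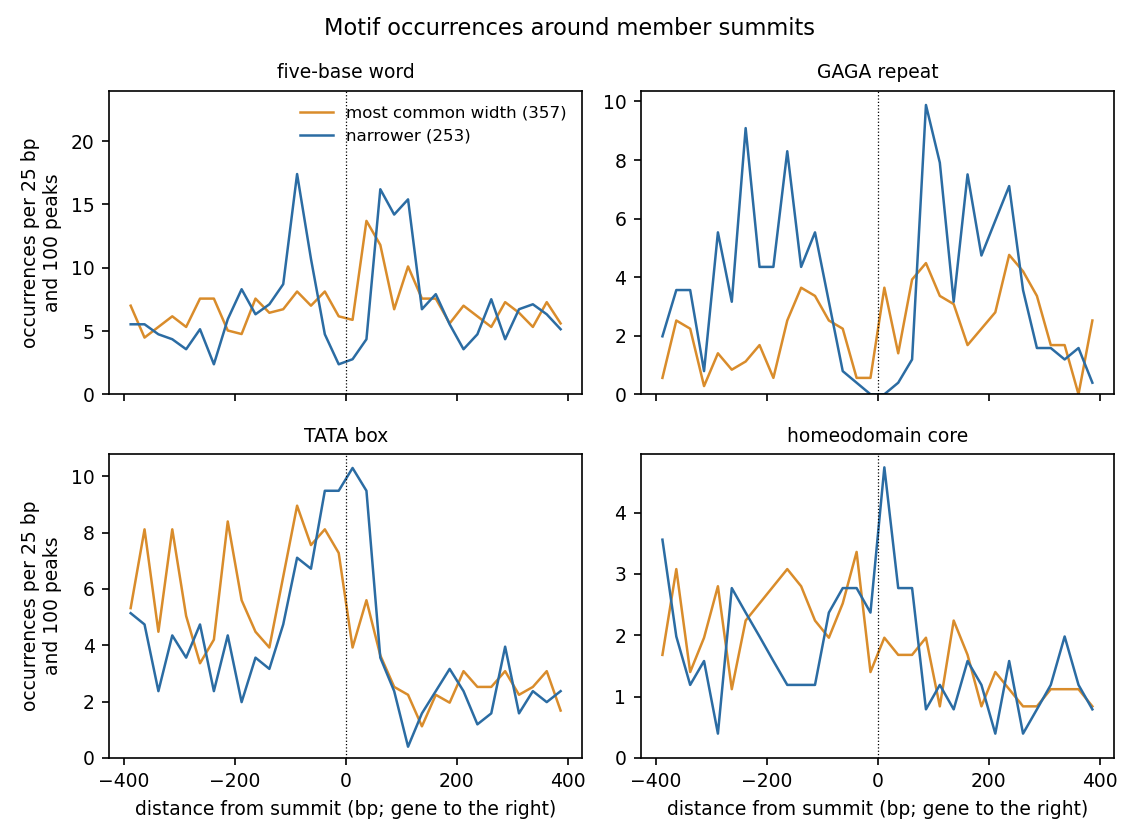
Motif occurrences per 25 bp and 100 peaks against distance from the summit, with the gene to the right, for members of fixed 340 bp width (orange, 357) and narrower members (blue, 253). In the narrower members CACTG, the first panel, drops to 3.56 within 50 bp of the summit between shoulders of 11.0 and 13.1. The TATA box panel counts the word TATAAA, which is highest there (9.68).

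An open scan of every 6-mer, each counted with its complement, called 29 (1.39%) as more frequent at summits than in the upstream flank and 28 (1.35%) as less frequent, with an adjusted p under 0.05 in the exact McNemar test and a ratio of at least 1.5 or its inverse. The largest ratios were those of ACTGTG in 99 windows against 43, GGTATA in 62 against 28, ATACCC in 68 against 31, ACAGTG in 128 against 59, ACACTG in 110 against 52, AATACC in 90 against 43, AGTGTA in 96 against 47 and CACTGA in 99 against 54. Of the 29, 5 held CACTG or its complement, 3 held GGTAT or its complement, 6 held only A and T, and the other 15 held none of these. The 4 smallest ratios were those of ACCCGG in 4 windows against 20, GGGACA in 7 against 32, GGAGGA in 15 against 53 and GCAGGA in 14 against 49, all rich in G and C. Against a flank on the gene side, 27 of the 29 and 24 of the 28 were called again in the same direction. That flank called far more words over the whole scan, 275 higher and 438 lower. Its mean GC was 45.4%, against 39.9% in the upstream flank. The summit windows were the same in both comparisons, so the second is not an independent repeat. GGTATA was in 10.1% of members, 9.61% of summits more than 500 bp from a start, 8.49% of the promoters of all coding genes, 7.19% of divergent-pair summits, 4.58% of upstream flanks and 2.34% of summits just downstream of a start. The octamer GGGCGTAG was in 15 members (2.45%, 1.49 to 4.01), of which 9 were among the 100 strongest and 6 among the other 511. It stood in 2.52% of divergent-pair windows, 2.34% of windows just downstream of a start, 0.430% of windows more than 500 bp from a start, 0.164% of upstream flanks and 0.287% of the promoters of all coding genes. Both words were picked after their counts were seen, so no test is given. The share of members with CACTG was about level across signal, 48.4% in the weakest of the 4 parts and 49.3% in the strongest. That of the homeodomain core was 13.7% and 20.4%, of the TATA box 27.5% and 42.1%, and of the GAGA repeat 13.1% and 7.89%.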

How the data were processed

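The samples were 2 biological replicates of anti-GFP ChIP-seq on whole prepupae, and the deposited data are peak lists on dm6, per the labels. IDR, the irreproducible discovery rate, scores how well the replicates rank a peak alike. The aligner, peak caller, versions and read depth are not given in the sources used here, so depth is unknown. The signal of a peak is the authors' enrichment value on a scale not stated, and was used only to rank, describe and filter within a list; signals of different lists are set side by side without a test. Per the file names, the main list is the conservative IDR thresholded list (3261 peaks, 3260 on the arms). The replicates' own thresholded lists hold 3229 and 2709 peaks and their ranked lists 66090 and 89686.

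Summits were placed against every annotated TSS of Ensembl release 115 without transposable elements; ties went to the coding gene (15 members had a tie). Windows came from the Release 6 sequence, whose chromosome lengths fit the files. Tests were two-sided: Fisher's exact between classes, exact McNemar within peaks and exact binomial for orientation, with Benjamini-Hochberg adjustment over 3 classes, 22 motifs or all 6-mers (SciPy 1.17.1, Python 3.11.15), and were checked on simulated data. The 22 motifs include the 7 words that an earlier scan chose on these data. The adjusted p of the other motifs can be lower than it would be without them. Wilson intervals and p-values cover counting error over peaks, which share 2 libraries and neighbouring sequence, not spread between animals. A peak was in a replicate when it overlapped a thresholded peak there by at least 1 bp. Named genes were those of the 20 strongest members found in both replicates, up to 3 of highest signal per list, starts with 2 summits, the edges of the rule and CG11294; other names (EcR, Mad, stv, RpL8, RpL27A, and the genes of the sugar and sarcomere lists) were chosen after their values were seen. The members, motifs and lists were chosen with earlier results of these data known. The alternatives were other lists, windows, flanks, limits and annotations, and, added after seeing the data, peaks under 340 bp wide and summits at least 200 bp apart.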

Additional observations from a re-analysis of the deposited data

How the results depend on the processing

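The alternatives were the pooled list, each replicate's own list, the stronger 1630 peaks, 1 start per gene, limits of 250 and 1000 bp, other windows, flanks, GC ranges and overlaps; unless said otherwise a value is in percentage points, members minus the other class, and the cause of a change was not tested. No pairing of samples between groups was possible because there was only 1 group. Against upstream flanks, 10 motifs were called higher and 3 with 100 bp windows; the number called lower was 0, but 2 with the flank on the gene side and 1 from each replicate's list alone. Against divergent-pair peaks the 3 called higher became 1 with 1 start per gene or a 1000 bp limit and 5 in the pooled list. The 8 called lower became 4 with 1 start per gene, 3 with 100 bp windows, 3 in windows of 30 to 40% GC and 2 in peaks narrower than 340 bp, and 4 to 10 from 1 replicate's list. The Motif 7 core turned from -6.05 to 0.230 with 100 bp windows. Against summits just downstream of a start, where none was called, 1 was called higher with 1 start per gene, 2 higher and 1 lower in the pooled list and 1 lower in the stronger peaks. In promoters the 9 called higher became 5 in windows of 30 to 40% GC.

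The 29 6-mers called higher became 47 with 1 start per gene, 54 and 46 with limits of 1000 and 250 bp, 275 with the flank on the gene side, and 19 to 107 from 1 replicate's list. The 28 called lower became 69 and 43 with those limits, 438 with the gene-side flank, 17 in the stronger peaks, 4 in narrower peaks and 3 to 208 from 1 replicate's list. The 611 members became 356 in the stronger peaks and 253 in narrower ones. Memberships over the 20 gene lists, 27 in all, became 46 in the pooled list and 14 in the stronger peaks.

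Agreement of members exceeded that of all other peaks by 9.24, and was no longer called with 1 start per gene (4.64), a 250 bp limit (5.32) or the stronger peaks (3.76); it was 2.69 from replicate 2's list alone, not called (exact test, adjusted p = 0.252), and 7.59 from replicate 1's. Against downstream peaks the 9.09 fell to 1.14, 7.53 and 3.69 under the same settings, with 5.38 from replicate 1's list alone, not called (exact test, adjusted p = 0.204), and 22.2 from replicate 2's. Against divergent-pair peaks the 6.96 became called at 7.80 (1000 bp limit), 8.64 (pooled list) and 9.33 (stronger peaks), and ran from -12.9 to 21.0 from 1 list. The share of signals above the median differed from divergent-pair peaks by -17.0 with a 250 bp limit, a call the main setting did not make (-3.61). Against downstream peaks it was called at 6.83 (1000 bp limit) and 12.9 (pooled list), and was 1.94 to 14.9 from 1 list. The excess in signal over all other peaks and the GAGA repeat's excess over divergent pairs were called in each alternative run, and a strand preference of CACTG was called in none of them. Depth is unknown, so no limit from it can be given.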
